A study of Homo sapiens with 9 samples.

Results

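The 38 genes described here encode enzymes and enzyme subunits of glycolysis, of pyruvate entry into the mitochondrion and of the tricarboxylic acid (TCA) cycle, together with PFKFB3 and PFKFB4, whose enzymes set the level of fructose 2,6-bisphosphate. They were taken from the 60671 genes of the deposited tables by matching a list of names to Ensembl identifiers. No measured value entered that match, but the list was chosen with earlier results of these data known. Of the 38, 17 belong to glycolysis, 5 to pyruvate entry and 16 to the TCA cycle. The series holds 9 RNA sequencing libraries of C28/I2, an immortalised human chondrocyte line, with 3 libraries in each group. Its title places carbonic anhydrase 2 (CA2) in the metabolism of articular chondrocytes. CA2 shRNA libraries come from cells treated with a short hairpin RNA named for CA2, Scrambled libraries from cells with a scrambled construct, and Control libraries from cells labelled Control. The sources used here give neither the hairpin's sequence, its delivery and the time of harvest nor whether Control cells were transduced. All groups are the same cell line, and nothing in the labels marks replicates as separate cultures. The spread behind each p-value is that between libraries and may be technical.

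Glycolysis splits glucose in the cytosol into pyruvate, yielding ATP and NADH. Pyruvate dehydrogenase turns pyruvate into acetyl-CoA in the mitochondrion, pyruvate carboxylase turns it into oxaloacetate, and the TCA cycle oxidises acetyl-CoA to carbon dioxide. Carbonic anhydrases interconvert carbon dioxide and bicarbonate, and cartilage, which has no blood vessels, is known to rely mainly on glycolysis.

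Library totals ran from 16994368 to 34261244 counts. CA2 itself had 1.397, 0.905 and 1.10 CPM (counts scaled to a common library size, with TMM factors) in the CA2 shRNA libraries, 1.82, 1.96 and 2.06 CPM in Scrambled and 2.31, 2.00 and 1.94 in Control. Every CA2 shRNA library was thus below the 6 control libraries, on 15 to 30 counts per library. Its log2 change was -0.77 against Scrambled (adjusted p = 0.0276) and -0.86 against Control (adjusted p = 0.0159). The first call was lost without CA2 shRNA 2 (adjusted p = 0.1), CA2 shRNA 3 (0.109), Scrambled 2 (0.0533) or Scrambled 3 (0.103) and with no filter on low counts (0.0544), and the second without CA2 shRNA 2 (0.0665), CA2 shRNA 3 (0.0759) or Control 1 (0.0531). Scrambled 2 and Control 3 stood apart from the other 7 libraries, with 4.08% and 4.06% of counts from mitochondrially encoded genes, against 5.55% to 6.86%. They also had the lowest NEAT1 levels, at 234 and 158 CPM, against 259 to 682 CPM, so Scrambled 2 was close to the others there. Of 12 chondrocyte markers 2 averaged at least 1 RPKM (reads scaled to gene length and library size), SOX9 at 24.2 and MATN3, while COL2A1 averaged 0.266, ACAN 0.0793 and COL9A1 was at 0. Among 4 fibroblast-like matrix markers, COL1A1 averaged 182 RPKM and FN1 384 RPKM, but COL3A1 only 0.502 RPKM and COL1A2 0.0536 RPKM. The summed level of the 4, nearly all from COL1A1 and FN1, ran from 449 to 478 RPKM in CA2 shRNA. It was 601 to 620 RPKM in Scrambled and 610 to 658 RPKM in Control. That sum moved with the groups, and its part in the results was not tested. None of 15 markers of immune, endothelial, epithelial, muscle or adipocyte cells reached 1 RPKM on average.

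In CA2 shRNA cells 5 of the 6 enzyme genes of the lower, energy-yielding steps of glycolysis were higher than in Scrambled cells, while the gene of the regulatory enzyme PFKFB3 and that of glucose-6-phosphate isomerase were lower. In the TCA cycle the subunits of the step from 2-oxoglutarate to succinate moved in both directions, and isocitrate dehydrogenase 2 and malate dehydrogenase 2 fell. The falls in that step, of SUCLA2 and SUCLG1, were lost against Scrambled in 12 and 10 of the 18 alternative settings given below. Of the 5 rises in lower glycolysis, that of PKM was lost in 11 of these settings and that of GAPDH in 3. Against Control, 3 of those 6 genes rose. Against Scrambled, 11 of the 38 genes rose, 6 fell and 21 did not pass an adjusted p of 0.05 in edgeR's quasi-likelihood test. Of all 19812 tested genes, 8.02% rose and 8.88% fell. Since 35 of the 38 genes averaged at least 10 CPM, the closer background is the 10003 tested genes at that level, of which 14.1% rose and 12.5% fell. The 28.9% of enzyme genes that rose lay above that share, and the 15.8% that fell lay near it. The median log2 change of the 38 was 0.12, beside 0.04 in the 10003 genes and -0.03 in all tested genes. In bulk libraries, a change in the number of cells that hold an RNA and a change in its amount per cell cannot be told apart.

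Against Control, 7 of the 38 genes rose, 6 fell and 25 did not pass. Of all tested genes 6.41% rose and 8.26% fell, and of those with at least 10 CPM 11.1% rose and 12.6% fell, beside 18.4% and 15.8% of the enzyme genes. Their median log2 change was 0.07, beside 0.03 in genes of at least 10 CPM. The 2 comparisons share the CA2 shRNA libraries, so they are given side by side and not as separate evidence. Between Scrambled and Control, edgeR's quasi-likelihood test called 0 of the 38 genes and 0 of 19812 (0%). At an unadjusted p of 0.05, 550 of all tested genes and 0 of the 38 passed there, and DESeq2 called 1 gene in the whole table. The mean chi-square per gene between the counts of 2 libraries was 3.38 for Scrambled 2 and Control 3. It was 17.0 and 15.3 for Scrambled 2 with its own group, and 12.5 and 7.21 for Control 3 with its own. Such spread within groups limits what the test can call, so 0 calls does not show that the controls are alike. All 38 genes passed the filter on low counts.

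**Figure D1:**
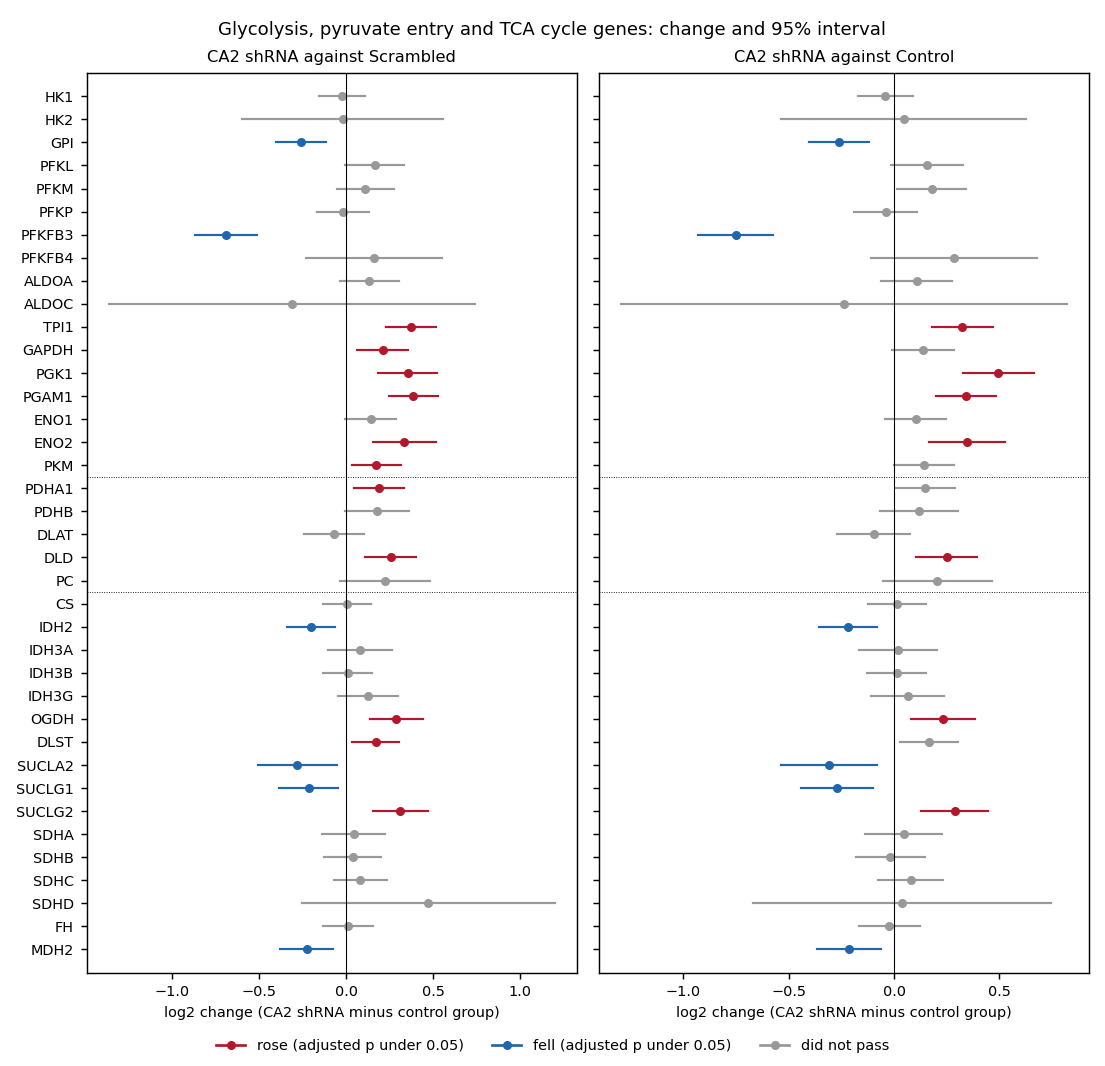
Log2 change of each of the 38 genes in CA2 shRNA against Scrambled (left) and against Control (right), with its 95% interval, in pathway order from glycolysis (top) through pyruvate entry to the TCA cycle. Red points rose, blue points fell and grey points did not pass an adjusted p of 0.05, and the largest called change is that of PFKFB3, at -0.69 and -0.75.

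Without Scrambled 2 and Control 3, 10 of the 38 rose and 3 fell against Scrambled, and 8 rose and 2 fell against Control. In that fit 4289 of all 19968 tested genes were called against Scrambled and 3213 against Control, in either direction. With all libraries these were 3348 and 2906 of 19812, so calls became more frequent over the table. In 18 alternative settings, which included leaving out each library in turn, 8 of the 17 calls against Scrambled were kept in every setting, those of PFKFB3, TPI1, PGK1, PGAM1, ENO2, DLD, OGDH and SUCLG2. Against Control 7 of 13 were kept in all, the same genes without OGDH.

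GPI fell in both comparisons, and neither hexokinase gene passed. Of the genes for glucose phosphorylation and isomerisation, HK1 and HK2 encode hexokinases, which trap glucose in the cell as glucose 6-phosphate, and GPI encodes the isomerase that turns it into fructose 6-phosphate. GPI had 521, 500 and 459 CPM in CA2 shRNA, 599, 608 and 565 CPM in Scrambled and 567, 590 and 616 in Control. Each CA2 shRNA library lay below all 6 control libraries, with CA2 shRNA 3 the lowest. The log2 change was -0.26 (SE 0.06) against Scrambled (adjusted p = 0.00461) and -0.26 against Control (adjusted p = 0.0048). Without CA2 shRNA 3 both calls were lost, at adjusted p = 0.0686 and 0.0753. HK1 averaged 236 ± 11 CPM in CA2 shRNA, 240.0 ± 7.46 CPM in Scrambled and 243 ± 5.93 CPM in Control (SD, n = 3 each), with a log2 change of -0.02 against Scrambled and an interval from -0.15 to 0.11. HK2 averaged 5.43 ± 2.43 CPM in CA2 shRNA, where CA2 shRNA 1 had 8.24 CPM and the other libraries 3.86 and 4.20 CPM, against 5.51 ± 0.423 CPM in Scrambled and 5.29 ± 0.634 CPM in Control. Per length, HK1 made up 97.6 ± 1.01% of the RPKM of both hexokinase genes in CA2 shRNA, 97.6 ± 0.127% in Scrambled and 97.7 ± 0.286% in Control.

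The 3 phosphofructokinase genes, which encode the subunits of the enzyme that commits sugar to glycolysis, did not pass in either comparison. PFKP, the most abundant, had 352, 339 and 299 CPM in CA2 shRNA, 348, 332 and 321 CPM in Scrambled and 339, 335 and 344 in Control. The groups overlapped, and the log2 change was -0.02 against Scrambled and -0.04 against Control. PFKL, the liver-type subunit, had 247 ± 19.1 CPM in CA2 shRNA, 219.9 ± 19.9 CPM in Scrambled and 221 ± 8.36 CPM in Control, with a log2 change of 0.17 and an adjusted p of 0.119 against Scrambled. It passed against Scrambled without CA2 shRNA 3 (adjusted p = 0.0286) or Scrambled 1 (0.0246), and against Control without CA2 shRNA 3 (0.0366) or Scrambled 2 (0.0413). The muscle-type PFKM had a log2 change of 0.11 against Scrambled and 0.18 against Control (adjusted p = 0.303 and 0.089), and passed against Control without CA2 shRNA 3 (0.0496) or Scrambled 2 (0.0204).

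PFKFB3 showed the largest called change among the 38. PFKFB3 and PFKFB4 encode enzymes that make and break fructose 2,6-bisphosphate, the strongest known activator of phosphofructokinase, and PFKFB3 mainly makes it. The gene lies at chr10:6144934-6254644 on the plus strand of GRCh38. It had 29.8, 25.3 and 29.2 CPM in CA2 shRNA, 47.3, 45.3 and 43.8 CPM in Scrambled and 47.3, 48.7 and 46.4 in Control. All CA2 shRNA libraries were well below all controls, and Scrambled and Control overlapped. The level was 61.8% of that in Scrambled (log2 change -0.69, SE 0.07, adjusted p = 3.0e-06) and 59.2% of that in Control (-0.75, adjusted p = 1.05e-06). Over the alternatives the log2 change against Scrambled stayed between -0.72 and -0.63. PFKFB4 had 33.2, 24.3 and 26.0 CPM in CA2 shRNA, 27.6, 20.5 and 26.8 CPM in Scrambled and 27.4, 21.6 and 19.9 in Control. Those libraries overlapped, and the gene did not pass (log2 change 0.16, adjusted p = 0.571 against Scrambled, and 0.28, adjusted p = 0.315 against Control, where it passed with no filter on low counts, at 0.0297). PFKFB4 shares its strand and some exon sequence with UCN2, which averaged 12.8 CPM in CA2 shRNA, 17.3 CPM in Scrambled and 16.1 CPM in Control.

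The balance of the 2 genes shifted with PFKFB3. Per length, PFKFB3 gave 47.3%, 51.0% and 52.8% of their summed RPKM in CA2 shRNA, 63.1%, 68.8% and 62.0% in Scrambled and 63.3%, 69.3% and 70.0% in Control. The CA2 shRNA shares were all lower than those of the control libraries, by a mean of 14.3 points against Scrambled and 17.1 against Control. In a two-sided exact permutation test of 3 against 3 libraries both differences had p = 0.1, the smallest such a test allows, and 0.218 after Benjamini-Hochberg adjustment over the 24 share tests made (8 shares in 3 comparisons).

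Aldolase splits fructose 1,6-bisphosphate, and triose phosphate isomerase (TPI1) turns one product into the other, so that both can be used. TPI1, at chr12:6867119-6870948 on the plus strand, had 612, 618 and 540 CPM in CA2 shRNA, 458, 469 and 438 CPM in Scrambled and 458, 472 and 484 in Control. Even CA2 shRNA 3, the lowest of its group, lay above the highest control library. The change on the log2 scale was 0.37 against Scrambled (SE 0.06, adjusted p = 0.000217) and 0.32 against Control (adjusted p = 0.000825), and over the alternatives it ran from 0.33 to 0.46 against Scrambled. ALDOA averaged 53.3 ± 4.63 CPM in CA2 shRNA, 48.5 ± 1.36 CPM in Scrambled and 49.4 ± 0.871 CPM in Control and did not pass (log2 change 0.13, adjusted p = 0.216 against Scrambled), though it did without CA2 shRNA 3 (0.0467). Other annotated genes, 1 on the same strand and 1 without counts on the opposite strand, cover 54.7% of its exon length, and shared reads may not have been counted, so the level of ALDOA is uncertain. ALDOC, the brain-type aldolase, was close to the limit of detection at a mean of 0.383 RPKM over the 9 libraries.

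Most genes of lower glycolysis rose against Scrambled. These enzymes run from glyceraldehyde 3-phosphate to pyruvate and include both ATP-forming steps. Of 6 genes, 5 rose against Scrambled (GAPDH, PGK1, PGAM1, ENO2 and PKM), none fell, and ENO1 did not pass. Among tested genes of at least 10 CPM, 14.1% rose and 12.5% fell against Scrambled, and 11.1% rose and 12.6% fell against Control. Against Control, 3 rose (PGK1, PGAM1 and ENO2) and 3 did not pass. The count against Scrambled was 3 without Control 2, Scrambled 3 or CA2 shRNA 2, and 6 without CA2 shRNA 3. Against Control it was 3 on leaving out any library but CA2 shRNA 3, without which it was 6.

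PGK1, which encodes phosphoglycerate kinase, the enzyme of the earlier ATP-forming step, rose in both comparisons. The gene spans chrX:77910739-78129295 on the plus strand. It had 452, 405 and 356 CPM in CA2 shRNA, 314, 325 and 309 CPM in Scrambled and 282, 290 and 287 in Control. The 3 groups did not overlap at all: Scrambled libraries also lay above Control, by a log2 change of 0.14 that did not pass (adjusted p = 1). CA2 shRNA was 0.35 higher than Scrambled on the log2 scale (SE 0.07, adjusted p = 0.00151) and 0.49 higher than Control (adjusted p = 6.34e-05). ATP7A, which overlaps 1.78% of its exon length together with a pseudogene, averaged 20.1 CPM in CA2 shRNA, 15.8 CPM in Scrambled and 16.1 CPM in Control. Its part in the PGK1 counts was not tested.

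PGAM1, for the mutase that moves the phosphate to the next carbon, had 342, 353 and 310 CPM in CA2 shRNA, 261, 263 and 245 CPM in Scrambled and 257, 264 and 272 in Control. Its lowest CA2 shRNA library exceeded its highest control library. The fitted log2 change was 0.39 against Scrambled (SE 0.06, adjusted p = 0.000127) and 0.34 against Control (adjusted p = 0.000426).

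Enolase makes phosphoenolpyruvate. ENO2, known for its expression in neurons, had 143, 130 and 122 CPM in CA2 shRNA, 111, 95.7 and 106 CPM in Scrambled and 109, 106 and 95.3 in Control. All CA2 shRNA libraries lay above all controls. The log2 change was 0.33 against Scrambled (SE 0.07, adjusted p = 0.00433) and 0.34 against Control (adjusted p = 0.00365). ENO1, the general form and the more abundant, had 829 ± 64.6 CPM in CA2 shRNA, 751 ± 34.1 CPM in Scrambled and 772 ± 6.12 CPM in Control, and the groups overlapped (log2 change 0.14, adjusted p = 0.12 against Scrambled). Without CA2 shRNA 3 it passed in both comparisons, at adjusted p = 0.0161 and 0.0472. ENO2 gave 16.2 ± 0.723% of the summed RPKM of both enolase genes in CA2 shRNA, 14.5 ± 1.17% in Scrambled and 14.0 ± 0.91% in Control (SD, n = 3 each). The CA2 shRNA shares did not overlap with either control (exact permutation p = 0.1, adjusted 0.218 in both).

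GAPDH and PKM were the most abundant of the 38 and passed against Scrambled but not against Control, a difference that was not tested. GAPDH, for the dehydrogenase that makes glycolytic NADH, had 1629, 1737 and 1481 CPM in CA2 shRNA, 1412, 1432 and 1346 CPM in Scrambled and 1425, 1468 and 1510 in Control. CA2 shRNA 3 lay above Scrambled but below the highest Control library. The change on the log2 scale was 0.21 (adjusted p = 0.0222) against Scrambled and 0.14 (adjusted p = 0.147) against Control. The first was lost without CA2 shRNA 2 (adjusted p = 0.112), Scrambled 3 (0.117) or Control 2 (0.0501), and the second passed without CA2 shRNA 3 (0.0255). Its 65 pseudogenes held 2.45% of the counts of the family.

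PKM, for pyruvate kinase, had 2759, 2916 and 2593 CPM in CA2 shRNA, 2537, 2439 and 2352 CPM in Scrambled and 2403, 2501 and 2584 in Control. The CA2 shRNA libraries exceeded all controls, but CA2 shRNA 3 was only just above Control 3. The fitted log2 change was 0.17 against Scrambled (adjusted p = 0.0476) and 0.14 against Control (adjusted p = 0.118). That call against Scrambled rests on almost every library: it was lost on leaving out any 1 of them but Control 1 and CA2 shRNA 3, with the highest adjusted p at 0.201 without Scrambled 3, then 0.178 without CA2 shRNA 2, 0.0993 without Control 2, 0.0614 without Scrambled 1, 0.0572 without Control 3, 0.0564 without CA2 shRNA 1 and 0.0535 without Scrambled 2. Against Control it passed without CA2 shRNA 3 (0.0405).

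**Figure D2:**
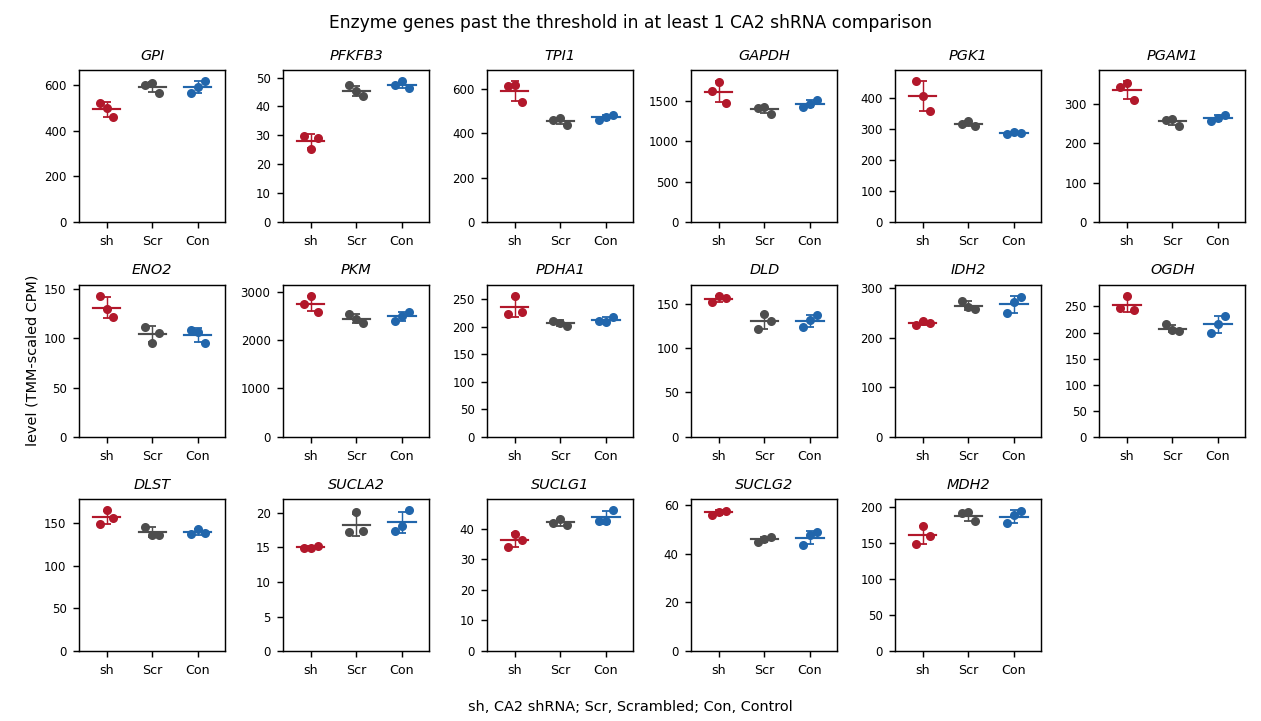
Level in TMM-scaled CPM of the 17 genes past the threshold in at least 1 CA2 shRNA comparison; points are libraries, the long bar is the mean and the error bar the SD of 3 libraries, and each axis starts at 0. PFKFB3, GPI, IDH2, SUCLA2, SUCLG1 and MDH2 lie lower in CA2 shRNA and the other 11 higher, with the largest log2 change for PFKFB3.

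Many glycolysis genes are known targets of the hypoxia-inducible factors, whose response element contains the core ACGTG. The promoter windows of RefSeq (GRCh38.p14, 250 bases before to 50 after each start) were searched for it on both strands, where a CACGTG counts on each strand with overlapping letters. Of the 36 genes with a window, 15 held the core, or 41.7%, against 28.5% of 15843 protein-coding genes. Those 36 genes had 59 windows, of which 19 held it (32.2%), against 23% of 22199 windows of protein-coding genes. By pathway, 11 of 17 glycolysis genes, 3 of 5 pyruvate entry genes and 1 of 14 TCA cycle genes (IDH3G) held it. Among the genes called against Scrambled it was in 4 of the 10 searched genes that rose and in 2 of 6 that fell, and in 9 of the 20 searched genes that did not pass, since OGDH and SDHC were not searched. The 250 bases before the start are shown for PGK1 and ENO2, which rose, and for the downstream start of PFKFB3, which fell, since all of them hold the core, in capitals.
PGK1, chrX:78103998-78104247, plus strand: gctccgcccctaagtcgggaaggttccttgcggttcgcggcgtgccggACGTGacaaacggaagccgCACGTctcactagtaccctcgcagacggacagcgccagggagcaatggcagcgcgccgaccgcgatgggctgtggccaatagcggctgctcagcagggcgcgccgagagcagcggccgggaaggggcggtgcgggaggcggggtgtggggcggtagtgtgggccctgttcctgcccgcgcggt
ENO2, chr12:6914330-6914579, plus strand: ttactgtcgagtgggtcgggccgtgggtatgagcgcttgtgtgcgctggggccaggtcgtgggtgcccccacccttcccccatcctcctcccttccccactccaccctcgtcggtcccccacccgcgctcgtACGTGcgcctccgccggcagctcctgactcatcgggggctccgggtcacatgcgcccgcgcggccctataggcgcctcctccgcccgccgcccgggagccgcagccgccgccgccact
PFKFB3, chr10:6202682-6202931, plus strand: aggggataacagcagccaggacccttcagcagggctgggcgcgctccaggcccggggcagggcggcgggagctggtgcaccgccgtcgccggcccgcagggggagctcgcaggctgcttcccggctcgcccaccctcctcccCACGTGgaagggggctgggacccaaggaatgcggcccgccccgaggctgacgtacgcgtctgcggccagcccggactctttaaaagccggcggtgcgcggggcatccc
PGK1 held the core at positions -202 and -183 counted from the start, and again 29 bases after it. ENO2 held it at -118, and PFKFB3 in both orientations of a CACGTG at -108. PGAM1 and PKM, which also rose, held none in their windows. A match to these letters is a description and not a binding site.

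Of the 5 genes of pyruvate entry, 2 rose against Scrambled, none fell and 3 did not pass, beside 14.1% risen and 12.5% fallen among tested genes of at least 10 CPM. PDHA1 encodes the catalytic alpha subunit of pyruvate dehydrogenase. It had 223, 257 and 227 CPM in CA2 shRNA, 212, 207 and 201 CPM in Scrambled and 210, 209 and 219 in Control. The CA2 shRNA libraries lay above all controls, narrowly except for CA2 shRNA 2. The log2 change was 0.19 against Scrambled (adjusted p = 0.0326) and 0.15 against Control (adjusted p = 0.108). Without CA2 shRNA 2 the first call was lost (adjusted p = 0.186), as it was without Scrambled 3 (0.146) or Control 2 (0.0698), while against Control the gene passed without CA2 shRNA 1 (0.0405) or Scrambled 2 (0.0408). MAP3K15, on the opposite strand, covers 21.2% of the exon length of PDHA1, and it fell (log2 change -0.58, adjusted p = 0.00178), to 6.19 CPM in CA2 shRNA against 9.23 CPM in Scrambled.

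DLD, for the dihydrolipoyl dehydrogenase shared by the pyruvate and the 2-oxoglutarate dehydrogenase complexes, rose in both comparisons. It had 152, 158 and 157 CPM in CA2 shRNA, 122, 139 and 130 CPM in Scrambled and 124, 132 and 137 in Control. Its CA2 shRNA libraries were close together and all above the controls. The change on the log2 scale was 0.26 against Scrambled (SE 0.06, adjusted p = 0.00599) and 0.25 against Control (adjusted p = 0.00794). LAMB1, which overlaps 1.37% of its exon length on the opposite strand, averaged 394 CPM in CA2 shRNA and 352 CPM in Scrambled (log2 change 0.16, adjusted p = 0.0371, lost without CA2 shRNA 2 at 0.114, CA2 shRNA 3 at 0.0594, Scrambled 1 at 0.0888, Scrambled 3 at 0.14 or Control 2 at 0.0771). Its part in the DLD counts was not tested. The beta subunit gene PDHB had 27.9 ± 1.99 CPM in CA2 shRNA against 24.7 ± 0.346 CPM in Scrambled, without overlap, yet did not pass (log2 change 0.18, adjusted p = 0.123), though it did without CA2 shRNA 1 (0.0408). DLAT, for the acetyltransferase core of the complex, had a log2 change of -0.07 (interval -0.24 to 0.10) and PC, for pyruvate carboxylase, of 0.22 (interval -0.03 to 0.48) against Scrambled.

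The opening steps of the TCA cycle form and oxidise citrate. CS, for citrate synthase, had 257, 278 and 262 CPM in CA2 shRNA, 263, 278 and 252 CPM in Scrambled and 254, 261 and 274 in Control. The groups overlapped fully, with a log2 change of 0.01 against each and an interval from -0.13 to 0.14 against Scrambled. IDH2, for the mitochondrial NADP-dependent isocitrate dehydrogenase, had 226, 235 and 230 CPM in CA2 shRNA, 275, 262 and 258 CPM in Scrambled and 249.2, 272 and 282 in Control. The CA2 shRNA libraries were all below the controls. The fitted log2 change was -0.20 against Scrambled (adjusted p = 0.0178) and -0.22 against Control (adjusted p = 0.0122). The call against Scrambled was lost without CA2 shRNA 1 (adjusted p = 0.137) or CA2 shRNA 3 (0.108), and that against Control without CA2 shRNA 1 (0.112), CA2 shRNA 3 (0.0865) or Control 3 (0.081). None of the subunit genes of the NAD-dependent isocitrate dehydrogenase, IDH3A, IDH3B and IDH3G, passed, with log2 changes against Scrambled of 0.08, 0.01 and 0.13. IDH3A shares 38.8% of its exon length with genes on the opposite strand.

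All 5 genes from 2-oxoglutarate to succinate were called against Scrambled, 3 as higher and 2 as lower. Tested genes of at least 10 CPM rose in 14.1% and fell in 12.5% of cases there. Over the 18 alternatives, 2 to 3 of these genes rose and 0 to 2 fell against Scrambled. The calls of SUCLA2, SUCLG1 and DLST were lost in 12, 10 and 9 of the alternatives. OGDH encodes the decarboxylating subunit of the 2-oxoglutarate dehydrogenase complex and DLST its succinyltransferase core. OGDH, at chr7:44606572-44709066 on the plus strand, had 247, 270.3 and 244 CPM in CA2 shRNA, 216, 204 and 203 CPM in Scrambled and 199.5, 217 and 231 in Control. CA2 shRNA libraries exceeded the controls throughout. The log2 change was 0.29 against Scrambled (SE 0.06, adjusted p = 0.00313) and 0.23 against Control (adjusted p = 0.0156), and the call against Control was lost without CA2 shRNA 2 (0.119), Control 1 (0.0864) or Control 2 (0.0781). DLST had 149, 165 and 156 CPM in CA2 shRNA, 146, 136 and 135 CPM in Scrambled and 137, 143 and 138 in Control. It was higher in each CA2 shRNA library than in any control, by a small margin in CA2 shRNA 1. The change on the log2 scale was 0.17 in both comparisons, with adjusted p = 0.044 against Scrambled and 0.0547 against Control. Against Scrambled it did not pass without CA2 shRNA 2 (0.2), CA2 shRNA 3 (0.0578), Scrambled 3 (0.183), Control 2 (0.0927) or Control 3 (0.0608), and against Control it passed without CA2 shRNA 1 (0.0259) or Scrambled 2 (0.0182). DLD, the subunit shared with pyruvate dehydrogenase, rose as given above, so OGDH, DLST and DLD were each called higher against Scrambled. The OGDH relative OGDHL, given below, was called lower there (log2 change -0.52, adjusted p = 0.024), a call lost in 4 of the 18 alternatives. A rise of every gene of the complex is therefore not shown.

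Succinyl-CoA synthetase, which forms ATP or GTP directly, pairs the alpha subunit of SUCLG1 with the GTP-forming beta subunit of SUCLG2 or the ATP-forming beta subunit of SUCLA2. SUCLG2, at chr3:67360460-67654612 on the minus strand, had 55.9, 57.1 and 57.5 CPM in CA2 shRNA, 44.5, 46.1 and 46.7 CPM in Scrambled and 43.4, 47.7 and 48.7 in Control. The CA2 shRNA libraries clustered well above the controls. Against Scrambled it rose by a log2 change of 0.31 (SE 0.06), with adjusted p = 0.00244, and against Control by 0.29, with adjusted p = 0.00488. SUCLA2, at chr13:47745736-48037968 on the minus strand, had 14.92, 14.96 and 15.21 CPM in CA2 shRNA, 17.3, 20.1 and 17.3 CPM in Scrambled and 17.3, 18.1 and 20.3 in Control. The 3 CA2 shRNA libraries were nearly equal and below all controls, of which Scrambled 2 and Control 3 were the highest. The fitted log2 change was -0.28 against Scrambled (SE 0.09, adjusted p = 0.048) and -0.31 against Control (adjusted p = 0.0315). Against Scrambled the call was lost on leaving out any CA2 shRNA library (adjusted p = 0.17, 0.106 and 0.142 without CA2 shRNA 1, 2 and 3), Scrambled 2 (0.23), Scrambled 3 (0.074) or Control 2 (0.0601). Against Control it was lost without CA2 shRNA 1, 2 or 3 (0.129, 0.0764 and 0.108), Control 2 (0.0572) or Control 3 (0.178).

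SUCLG1 had 34.0, 38.4 and 36.2 CPM in CA2 shRNA, 41.7, 43.2 and 41.1 CPM in Scrambled and 42.5, 42.4 and 45.9 in Control. Its 3 CA2 shRNA libraries all lay under the 6 control libraries. The log2 change was -0.21 against Scrambled (adjusted p = 0.0411) and -0.27 against Control (adjusted p = 0.0119). Without CA2 shRNA 1 or CA2 shRNA 3 the call was lost against Scrambled (adjusted p = 0.28 and 0.161) and Control (0.127 and 0.0704). Against Scrambled it was also lost without Scrambled 2 (0.133), Scrambled 3 (0.0888) or Control 3 (0.0505), and against Control without Control 3 (0.0765). Of the summed RPKM of both beta subunit genes, SUCLG2 gave 91.5%, 91.6% and 91.6% in CA2 shRNA, 88.1%, 86.8% and 88.6% in Scrambled and 87.8%, 88.3% and 87.3% in Control. The share was 3.74 points higher in CA2 shRNA than in Scrambled and 3.76 points higher than in Control, without overlap (exact permutation p = 0.1, adjusted 0.218 in both). RPKM divides by annotated exon length, 3088 bases for SUCLG2 and 8879 for SUCLA2, so the size of the share depends on the annotation.

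**Figure D3:**
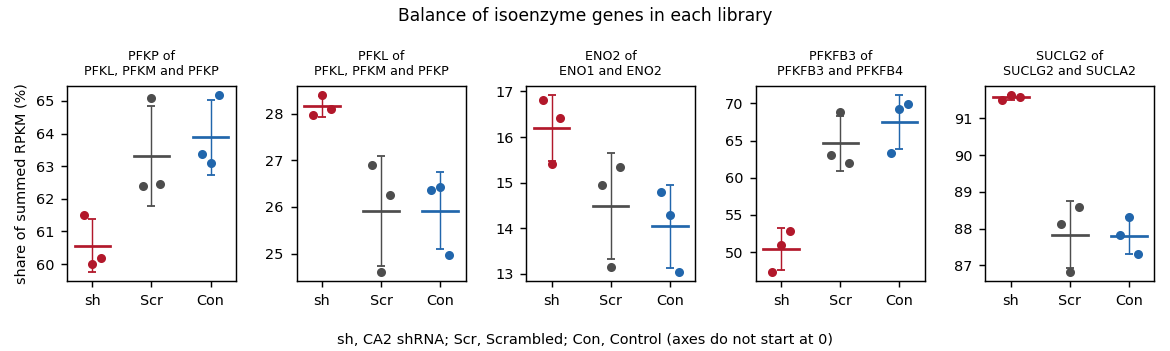
Share in percent of the summed RPKM that 1 gene gives within an enzyme step, by library, with mean and SD of 3 libraries; the vertical axes do not start at 0. The 5 panels are those of the 8 shares tested in which the CA2 shRNA libraries are separate from all control libraries. Their shares are lower for PFKFB3 (50.4% against 64.6% in Scrambled and 67.5% in Control) and PFKP, and higher for PFKL, ENO2 and SUCLG2. The shares of HK1, ALDOA and PFKM, not shown, overlapped with Scrambled.

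Of the phosphofructokinase genes, PFKP gave 60.6 ± 0.813% of the summed RPKM of PFKL, PFKM and PFKP in CA2 shRNA, 63.3 ± 1.546% in Scrambled and 63.9 ± 1.14% in Control. PFKL gave 28.2 ± 0.229% in CA2 shRNA, 25.9 ± 1.18% in Scrambled and 25.9 ± 0.824% in Control (SD, n = 3 each). Neither share overlapped between CA2 shRNA and a control (exact permutation p = 0.1, adjusted 0.218), though none of these genes passed by itself.

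The 4 subunit genes of succinate dehydrogenase, the enzyme of the cycle that is also complex II of the respiratory chain, did not pass in either comparison. SDHC, the most abundant, had 131, 134 and 129 CPM in CA2 shRNA, 116, 134 and 123 CPM in Scrambled and 116, 127 and 130.1 in Control. The groups overlapped, with a log2 change of 0.08 against each control. The changes of SDHA and SDHB against Scrambled were 0.04 and 0.04 on the log2 scale, with intervals of -0.14 to 0.23 and -0.12 to 0.20. Pseudogenes took 44.2% of the counts of the SDHA family and 10% of those of SDHD, so these levels are uncertain. SDHD varied most within groups, with 8.24, 5.43 and 7.68 CPM in CA2 shRNA, 2.98, 7.16 and 5.21 CPM in Scrambled and 5.504, 6.78 and 8.51 in Control. Its log2 change of 0.47 against Scrambled (adjusted p = 0.342) passed without Scrambled 2 (0.0476), and the groups overlapped widely.

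The closing steps of the cycle are those of fumarase and malate dehydrogenase. MDH2, for the mitochondrial malate dehydrogenase, had 148, 173 and 160 CPM in CA2 shRNA, 191, 192 and 180 CPM in Scrambled and 177, 189 and 193 in Control. CA2 shRNA libraries were all lower than the controls, with CA2 shRNA 2 closest to them. The change on the log2 scale was -0.23 against Scrambled (SE 0.06, adjusted p = 0.017) and -0.22 against Control (adjusted p = 0.0241). Without CA2 shRNA 1 both calls were lost (adjusted p = 0.193 and 0.255), as they were without CA2 shRNA 3 (0.0976 and 0.129). Against Scrambled the same held without Scrambled 2 (0.0633), and against Control without Control 2 (0.0658) or Control 3 (0.103). FH, for fumarase, had a log2 change of 0.01 against Scrambled (interval -0.13 to 0.16) and -0.02 against Control.

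**Figure D4:**
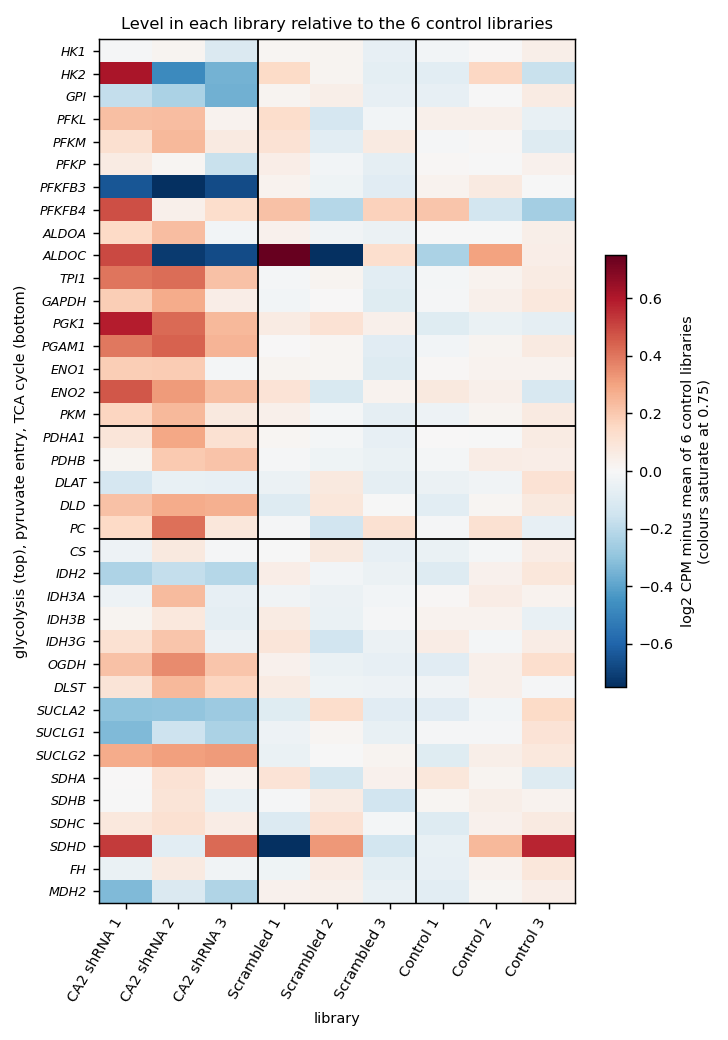
Level of each of the 38 genes in each library, as log2 CPM minus the mean of the 6 control libraries (red higher, blue lower, colours saturating at 0.75); rows follow the pathways and columns the groups. The CA2 shRNA columns are red for TPI1, GAPDH, PGK1, PGAM1, ENO2 and PKM, paler in CA2 shRNA 3, where ENO1 lies at the control mean, and blue for GPI, PFKFB3, IDH2, SUCLA2, SUCLG1 and MDH2.

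The size of the rise differed between the CA2 shRNA libraries. Among the 17 glycolysis genes, CA2 shRNA 3 was the lowest of its group for 13 and the highest for none. The median log2 deviation of these genes from the mean of the 6 control libraries was 0.19 in CA2 shRNA 1, 0.23 in CA2 shRNA 2 and 0.03 in CA2 shRNA 3. Without CA2 shRNA 3, 12 of the 38 genes rose and 1 fell against Control, and 13 rose and 1 fell against Scrambled. In that fit 2380 of all 20350 tested genes were called against Control and 2710 against Scrambled, in either direction. With all libraries these were 2906 and 3348 of 19812. In the TCA cycle, CA2 shRNA 2 was the highest of its group for 13 of 16 genes. Among control libraries Scrambled 3 was the lowest of its group for 23 of the 38 genes and Control 1 for 24.

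Levels per length spanned a wide range. They divide by the annotated exon length of each gene, so their order depends on the annotation as well. GAPDH led with a mean of 622 RPKM over the 9 libraries, followed by PKM (299), TPI1 (187), ENO1 (150.0) and PGAM1 (112), and these neighbours were separate in the Scrambled libraries. The most abundant genes of the cycle were IDH2 at 91.1 RPKM and FH at 70.4 RPKM. PGAM1 and IDH2 overlapped in the Scrambled libraries, as did PGK1 (61.6) and PFKP (60.1). At the low end stood PC (1.99), SUCLA2 (1.94), HK2 (0.913) and ALDOC (0.383). The 38 genes together took 0.757 ± 0.024% of all RPKM in CA2 shRNA, 0.705 ± 0.0466% in Scrambled and 0.723 ± 0.0342% in Control (SD, n = 3 each). The groups overlapped, with exact permutation p = 0.2 against Scrambled and 0.3 against Control.

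An earlier look at these data had found the heptamers ACACCAA and CACCAAA in the 3′ untranslated regions (UTRs) of many genes that fell, so they were searched for in the sense strand of the 3′ UTRs of GENCODE 29. Over the whole table, 48.9% of 1500 searched genes that fell against Scrambled held at least 1 of them, 9.45% of 1576 that rose, and 19.8% of all 14054. Against Control the shares were 51.2% of 1467 fallen and 10.5% of 1252 risen genes. The heptamers were picked on these same data, so these shares, and the counts among the 38 genes, are no separate evidence of a link. Of the 38 enzyme genes 8 held one: HK2, GPI, PFKFB3, DLD, DLST, SUCLA2, SUCLG2 and SDHC. That was 3 of the 6 that fell (GPI, PFKFB3 and SUCLA2), 3 of the 11 that rose against Scrambled (DLD, DLST and SUCLG2) and 2 of the 21 that did not pass. IDH2, SUCLG1 and MDH2 fell and held neither. The sites of the called genes are shown with 10 bases on each side and the heptamer in capitals, since they occur both in genes that fell, given in the upper lines, and in genes that rose.
PFKFB3, chr10:6235216-6235242, plus strand: gtttggaaccACACCAAtgatattttt
GPI, chr19:34400523-34400549, plus strand: tggcctgtgtCACCAAAtcccaagact
SUCLA2, chr13:47942912-47942938, minus strand: ttatcttcagCACCAAAtacatgataa
DLD, chr7:107920478-107920504, plus strand: acttggctgaACACCAActccacactc
DLST, chr14:74903027-74903053, plus strand: tcataggctgACACCAAgaagactcgt
SUCLG2, chr3:67360471-67360497, minus strand: gctgttcattCACCAAAaatattttag
Coordinates are those of GRCh38, and a match is a description, not evidence of a target site.

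Among further genes of the same pathways, calls were about as frequent as over all tested genes for glycolysis. Of 12 tested genes on a list of other glycolysis genes 1 rose and 1 fell against Scrambled, where 8.02% of all tested genes rose and 8.88% fell. Against Control 0 rose and 1 fell, beside 6.41% and 8.26% of all tested genes. PFKFB2, which like PFKFB3 makes and breaks fructose 2,6-bisphosphate, had 17.1, 19.9 and 16.8 CPM in CA2 shRNA, 23.4, 24.3 and 22.4 CPM in Scrambled and 24.2, 23.6 and 25.2 in Control. It was lower in all CA2 shRNA libraries than in any control (log2 change -0.39, adjusted p = 0.00329 against Scrambled, and -0.45, adjusted p = 0.00107 against Control). HKDC1, of the hexokinase family, averaged 1.19 ± 0.2 CPM in CA2 shRNA, 0.35 ± 0.105 CPM in Scrambled and 0.525 ± 0.42 CPM in Control (log2 change 1.76, adjusted p = 0.0117 against Scrambled, lost without CA2 shRNA 2 at 0.0626 or Scrambled 3 at 0.0746).

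Both phosphatase genes of pyruvate dehydrogenase moved, in opposite directions. PDP1 and PDP2 encode the phosphatases that switch the enzyme on. PDP1 had 53.3, 43.9 and 54.7 CPM in CA2 shRNA, 69.0, 81.6 and 76.3 CPM in Scrambled and 74.4, 79.7 and 78.1 in Control. That was a fall without overlap, with log2 changes of -0.58 against Scrambled (adjusted p = 8.06e-05) and -0.61 against Control (adjusted p = 4.69e-05). PDP2 had 81.9, 88.9 and 90.8 CPM in CA2 shRNA, 62.6, 75.5 and 71.6 CPM in Scrambled and 70.7, 68.2 and 73.3 in Control, so the other phosphatase gene was higher without overlap (log2 change 0.32, adjusted p = 0.0042 against Scrambled, and 0.30, adjusted p = 0.00665 against Control, the latter lost without Control 2 at 0.0573). PDHX, for the component that binds dihydrolipoyl dehydrogenase to the complex, had 81.5, 88.6 and 86.9 CPM in CA2 shRNA, 64.4, 65.9 and 62.8 CPM in Scrambled and 62.0, 69.7 and 71.0 in Control, and rose without overlap (log2 change 0.41, adjusted p = 0.000214 against Scrambled, and 0.34, adjusted p = 0.0012 against Control). PDK4, for a kinase that switches the enzyme off, was low throughout, at 0.697 ± 0.32 CPM in CA2 shRNA, 1.10 ± 0.169 CPM in Scrambled and 1.57 ± 0.376 CPM in Control. It fell against Control (log2 change -1.18, adjusted p = 0.018), but not without CA2 shRNA 2 (0.0874), CA2 shRNA 3 (0.0894) or Control 3 (0.0981). On that list of 10 tested genes 2 rose and 1 fell against Scrambled, and 2 rose and 2 fell against Control, to be read beside the same shares of all tested genes on a list this short.

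On the list of other TCA cycle genes and their cytosolic counterparts, 1 of 14 rose and 3 fell against Scrambled (8.02% and 8.88% of all tested genes), and 1 rose and 1 fell against Control (6.41% and 8.26%). IDH1, for the cytosolic isocitrate dehydrogenase, had 38.8, 37.5 and 39.3 CPM in CA2 shRNA, 48.9, 53.8 and 56.8 CPM in Scrambled and 48.4, 57.0 and 58.4 in Control. As for IDH2, no CA2 shRNA library reached the lowest control, with a log2 change of -0.47 (adjusted p = 0.000444) against Scrambled and -0.50 (adjusted p = 0.000215) against Control. ACO1, the cytosolic aconitase, had 148.8, 161 and 155 CPM in CA2 shRNA, 127 to 136 CPM in Scrambled and 124 to 136 CPM in Control, and rose in both comparisons (log2 change 0.25, adjusted p = 0.00468 against Scrambled, and 0.26, adjusted p = 0.00468 against Control, lost without Control 2 at 0.0576). The OGDH relative OGDHL fell against Scrambled (log2 change -0.52, adjusted p = 0.024, lost without CA2 shRNA 1 at 0.0836, CA2 shRNA 3 at 0.131, Scrambled 1 at 0.0596 or Scrambled 3 at 0.0838). SDHAF4, an assembly factor of succinate dehydrogenase, fell to 1.79 ± 0.0426 CPM in CA2 shRNA against 2.72 ± 0.303 CPM in Scrambled (log2 change -0.59, adjusted p = 0.0415), a call lost on leaving out any library but Control 1 or Control 3, at adjusted p of up to 0.13 without Scrambled 1, and also with DESeq2 (0.0811), no filter (0.105), only these groups in the fit (0.0594) or a replicate block (0.0551).

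**Figure D5:**
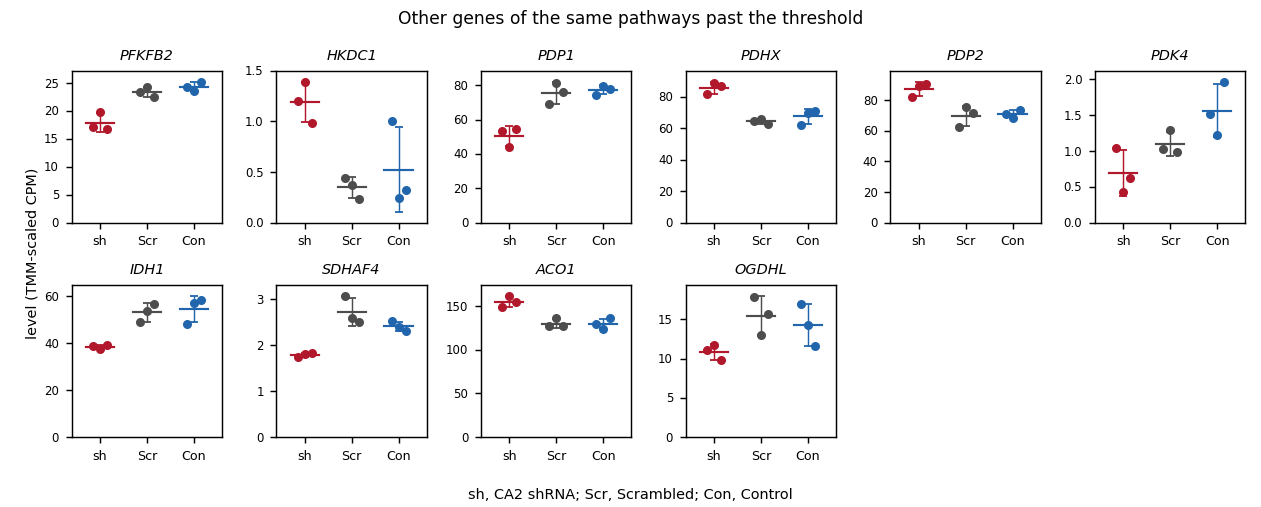
Level in TMM-scaled CPM of the 10 genes on the lists of other glycolysis, pyruvate entry and TCA cycle genes that passed in at least 1 CA2 shRNA comparison, by library, with mean and SD of 3 libraries and each axis from 0. PDP1, PFKFB2 and IDH1 lie lower in CA2 shRNA than in both controls and PDHX and PDP2 higher.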

How the data were processed

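RNA of 9 C28/I2 libraries was extracted as total RNA, and ribosomal RNA was removed, per the labels' protocols. The authors aligned reads with STAR 2.5.1a to GRCh38 and counted them with featureCounts 1.4.6-p5, per the submitters' processing notes; the sources used here do not state the annotation, the strand setting or the treatment of multimapping reads. The deposited raw counts per gene were tested. The deposited RPKM values were used for levels between genes and for shares. The CPM values printed were computed from the deposited counts with TMM factors. Columns were matched to libraries by name.

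Symbols were found for 60401 genes in the gene table and for 246 more in GENCODE 29. In R 4.3.3, edgeR 4.0.16 filtered low counts (filterByExpr) and fitted all 3 groups in a quasi-likelihood model of 19812 genes, with Benjamini-Hochberg adjustment over all of them and a threshold of 0.05; limma 3.58.1 and DESeq2 1.42.0 were also loaded, the second as an alternative test. Fits were checked on simulated data with the same spread for all genes and with larger changes than most of those called among the 38. That check therefore does not show how well changes of the smaller size are recovered. Library totals of 16994368 to 34261244 counts limit genes of few counts most. Genes named are the 38, with library values for called genes and for the most abundant of each role, and those of the pathway lists that passed. The members and lists were chosen with earlier results of these data known. The alternatives were other scalings, filters and tests, a replicate block, only the 2 groups compared, and leaving out libraries. 1 gene of the TCA cycle list is not reported here and was left out of its counts.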

Additional observations from a re-analysis of the deposited data

How the results depend on the processing

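None of the results changed direction where called, under 18 alternatives per comparison. Leaving out each library in turn, 7 to 13 enzyme genes rose and 1 to 6 fell against Scrambled, and 6 to 12 rose and 1 to 6 fell against Control. Over all tested genes, 864 to 2357 rose and 1129 to 1876 fell against Scrambled, 663 to 2030 rose and 1063 to 2027 fell against Control, and 0 to 1 rose in Scrambled against Control. Without Control 3 and Scrambled 2 together, 3 enzyme genes fell against Scrambled and 2 against Control, and 2407 genes of the table rose against Scrambled. In Scrambled against Control, 5 genes rose and 2 fell with no filter, and 1 rose with DESeq2. With CPM in place of RPKM the SUCLG2 share differed by 7.55 points against Scrambled and 7.60 against Control, and the share of all 38 genes by 0.0762 points against Control. Replicate numbers did not pair the libraries: correlations of same-numbered libraries ran from -0.185 to 0.105. With the replicate block 3422 genes were called against Scrambled, 2946 against Control and 0 in Scrambled against Control; PKM, SUCLA2 and SDHAF4 did not pass against Scrambled (adjusted p = 0.0533, 0.0548 and 0.0551). The cause of these changes was not tested beyond the change in libraries or filter itself. Calls near the threshold (PKM, DLST, SUCLA2, SUCLG1) depend on single libraries, and at 15 to 66 counts per library the CA2 level is imprecise. With all libraries kept, SUCLA2 and SUCLG1 did not pass against Scrambled with DESeq2 (adjusted p = 0.0823 and 0.0779) or its size factors in edgeR (0.0699 and 0.0744). With no filter they had 0.0665 and 0.0778, and DLST 0.0515. With only the 2 groups compared, PKM, DLST, SUCLA2 and SUCLG1 had 0.0605, 0.0609, 0.0752 and 0.0786. Upper-quartile factors lost PKM (0.0785), PDHA1 (0.0551) and DLST (0.0856).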
